A study of Mus musculus with 6 samples.

Results

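The genes of betaine breakdown and of the hepatic methionine cycle were examined in liver tissue from ARSB-null mice and from control mice. The set held 10 genes, which are Bhmt, Bhmt2, Dmgdh, Sardh, Chdh, Gnmt, Mat1a, Pemt, Aldh7a1 and Ahcy. They were taken by gene symbol from the probe sets that the array annotation assigns to exactly 1 gene, and each gene was read from its probe set with the highest mean over all 6 arrays. By this rule 9 of the 10 genes were measured, among 19938 genes in all. Ahcy had no value, because each of the 3 probe sets that carry its symbol also carries that of Gm4737. ARSB (arylsulfatase B) is the lysosomal sulfatase that takes the 4-sulfate group off chondroitin 4-sulfate and dermatan sulfate. The tested animals were 3 homozygous ARSB-null males, compared with 3 control C57BL/6J males, 1 array per liver. All were 12 weeks old, untreated and on the C57BL/6J background. The homozygous colony was bred from heterozygous carriers, and the sources used here do not call the controls littermates, so genotype and colony cannot be told apart. The 3 arrays per group are described as separate mice, and their number limits the precision. The values are log2 signals, so a difference of 1 is a doubling of signal, and signals of different probe sets are not compared with each other.

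The liver oxidizes choline to betaine, and betaine gives a methyl group to homocysteine, which makes methionine. Methionine is then activated to S-adenosylmethionine (SAM), the methyl donor of the cell, and the S-adenosylhomocysteine that remains after methyl transfer is hydrolyzed back to homocysteine. The dimethylglycine left from betaine loses its methyl groups in mitochondria, first to sarcosine and then to glycine. In liver, hepatocytes are the main site of this pathway. The question here was whether any step differed in livers that lack ARSB. Dmgdh lies directly beside Arsb on the chromosome, and Bhmt2 and Bhmt follow it, so the 3 genes were examined as neighbors of the disrupted gene as well.

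The array measured the loss of Arsb. On its brighter probe set the log2 signal of Arsb was 7.63, 7.46 and 7.64 in ARSB-null livers, against 10.21, 10.23 and 10.21 in control livers (log2 difference -2.64, adjusted p = 0.000639 from limma). Among lists of cell markers, the summed linear signal of 11 measured hepatocyte markers lay between 158200 and 167500 in ARSB-null livers and between 154000 and 164600 in control livers, and that of 7 kidney tubule markers lay between 402.7 and 510.8 and between 396.6 and 530.4. For 3 measured erythroid markers the sum was 1179 to 1514 in ARSB-null livers and 2353 to 2758 in control livers. All 3 averaged lower, by 0.41 to 1.56 on the log2 scale. For 11 stellate cell markers the sum was 6464 to 6833 in ARSB-null livers and 5213 to 5752 in control livers, with 8 averaging higher and 3 lower and a median log2 difference of 0.101. Without Ecm1, taken out after its values were seen, these sums overlapped (3764 to 4435 and 3701 to 3919). For 6 bile duct markers the sum was 608.5 to 686.1 in ARSB-null livers and 705.3 to 767.5 in control livers, with 3 averaging higher and 3 lower, and without Sox9, taken out in the same way, the sums overlapped (342.7 to 392.1 and 349.5 to 389.4). The sums of 12 macrophage markers (8803 to 9354 and 8380 to 10850) and of 10 endothelial markers (7946 to 8865 and 8090 to 8460) overlapped between the groups. Of the 12 macrophage markers, 3 averaged higher and 9 lower, with a median log2 difference of -0.136. At an unadjusted p under 0.05 from limma, 3 were lower and 2 higher, beside 3.8% and 2% of all 19938 genes. The lower ones were Cd163 (-0.77), Adgre1 (-0.35) and Csf1r (-0.33), and the higher ones Cd68 (0.53) and C1qa (0.39). None of the 7 marker lists held a gene past the adjusted threshold of limma over all probe sets, and 2 erythroid markers passed it over the single-gene probe sets alone. The part of these cell types in the values below was not tested. In whole tissue, a smaller number of cells of a type and less RNA in each of them cannot be told apart.

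No gene of betaine breakdown or of the methionine cycle passed the test. At an adjusted p under 0.05 from limma, 0 of 9 genes were higher in ARSB-null liver and 0 were lower, where 0.00562% of all 35556 probe sets were higher and 0.0141% were lower. At an unadjusted p under 0.05, the counts were again 0 higher and 0 lower, against 2.75% and 3.19% of all probe sets. The analysis of variance that the methods name called 1 of the 9 genes higher and 0 lower without adjustment, where it called 2.65% and 3.91% of all probe sets. That gene was Dmgdh, and after adjustment it called 0 of the 9. The 9 log2 differences ran from -0.14 for Bhmt2 to 0.17 for Dmgdh, with 6 above and 3 below 0 and a median of 0.031, where the median over all probe sets was 0.001. The adjusted p-values ran from 0.931 to 0.995. On the brightest probe set of each gene, all 95% intervals lay between a 0.768-fold and a 1.32-fold level in ARSB-null relative to control liver. The fainter Bhmt probe set 10411142, described below, reached further, with a 95% interval of 0.48-fold to 1.22-fold. The residual standard deviations of the 9 probe sets used, 1 per gene, were 0.0543 to 0.152 on the log2 scale. The median was 0.171 over all probe sets and 0.147 over the brighter ones, to which the 9 belong.

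**Figure D1:**
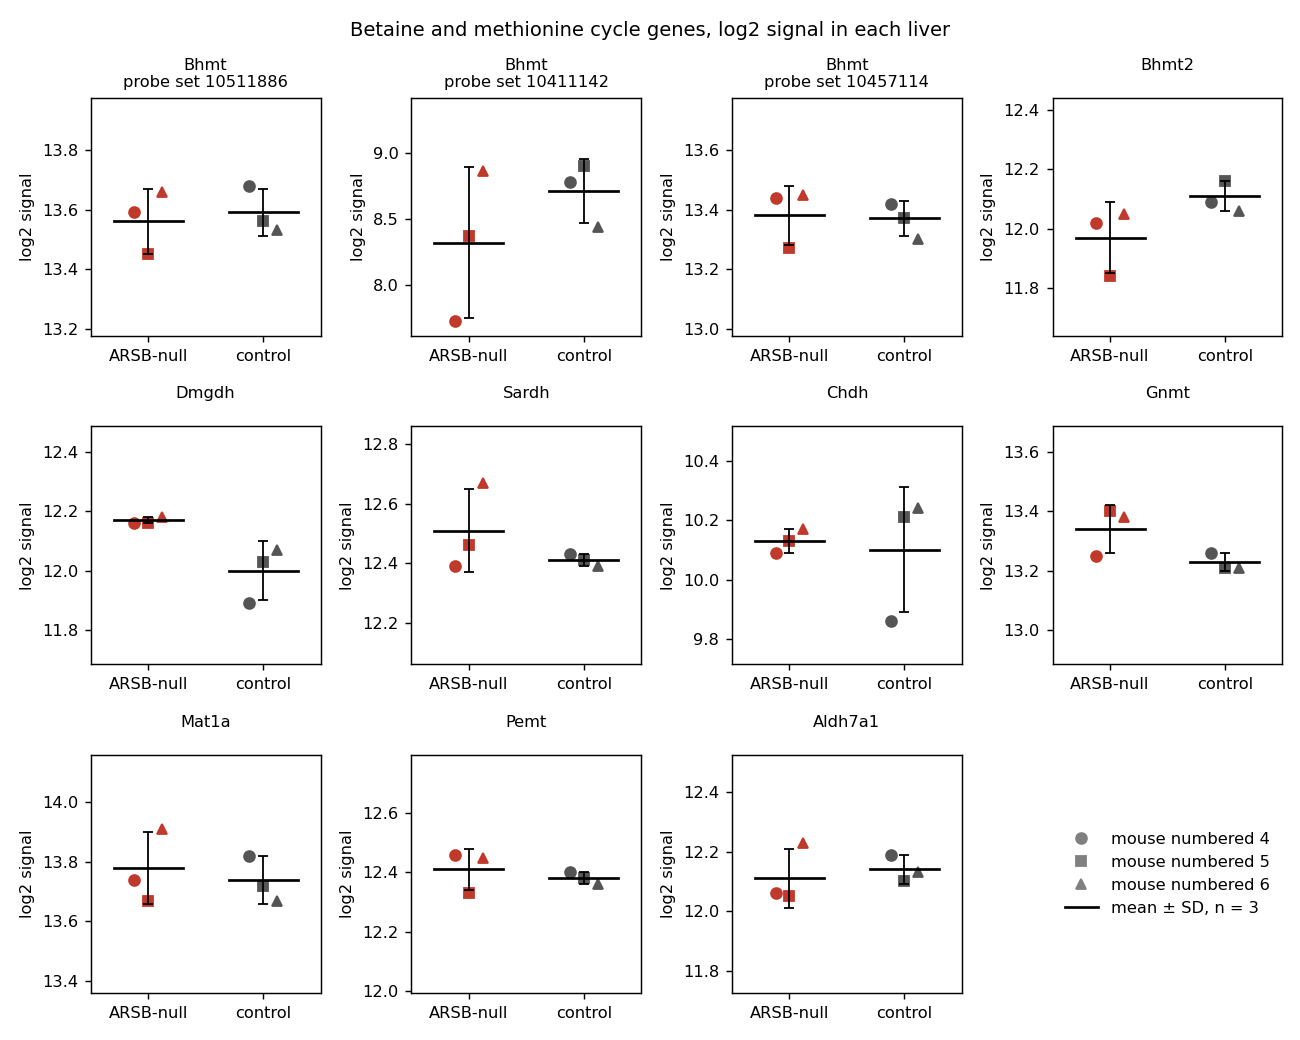
Log2 signal (vertical axis) of each single-gene probe set of the betaine and methionine cycle genes in 3 ARSB-null (red) and 3 control (grey) livers, with marker shapes for the mouse numbers, horizontal bars for means and error bars for SD (n = 3). Axes span the same range in all panels except that of Bhmt probe set 10411142, which is wider; the groups are apart only for Dmgdh, from 12.16 to 12.18 in ARSB-null and from 11.89 to 12.07 in control livers, and for Bhmt2, where the nearest livers are at 12.05 and 12.06.

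Choline enters the pathway through a pair of oxidation steps. Chdh, the mitochondrial choline dehydrogenase that makes betaine aldehyde, had log2 signals of 10.09, 10.13 and 10.17 in ARSB-null livers, against 9.86, 10.21 and 10.24 in control livers. The control mouse numbered 4 was the lowest of all 6, and the other controls lay above all the ARSB-null livers. The log2 difference was 0.03 (95% interval -0.28 to 0.33), and without that control it was -0.093. Aldh7a1, an aldehyde dehydrogenase that oxidizes betaine aldehyde to betaine and also acts in lysine breakdown, read 12.06, 12.05 and 12.23 in ARSB-null livers and 12.19, 12.10 and 12.13 in control livers. The groups overlapped, with a log2 difference of -0.02 (95% interval -0.26 to 0.21).

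Betaine then serves as the methyl donor for homocysteine. Bhmt (betaine-homocysteine methyltransferase), one of the abundant enzymes of the hepatocyte, was read by 3 probe sets. On the brightest, its log2 signal was 13.59, 13.45 and 13.66 in ARSB-null livers and 13.68, 13.56 and 13.53 in control livers. The values were interleaved, and the difference was -0.03 (95% interval -0.27 to 0.22), which as a ratio is 0.828-fold to 1.17-fold. Another probe set (10457114) gave a log2 difference of 0.02 (95% interval -0.22 to 0.26). The third (10411142) read 7.73, 8.37 and 8.86 in ARSB-null livers and 8.78, 8.90 and 8.44 in control livers. Its spread was wider, with a residual standard deviation of 0.436, and its difference of -0.38 had a 95% interval of -1.06 to 0.29. Without the ARSB-null mouse numbered 4, the lowest liver, that difference was -0.09, and without the one numbered 6 it was -0.656. The 3 probe sets of Bhmt thus differed in sign, and none of them passed the test. The number of a probe set follows position on this array, since 94.3% of single-gene probe sets next to each other by number belong to genes of the same chromosome. By number, 10411142 falls between Jmy and Bhmt2 on chromosome 13, which is the place of the Bhmt gene. The brightest probe set falls between Manea and Bach2os on chromosome 4, and 10457114 between Cbln2 and Rttn on chromosome 18, while the other 8 genes each have a probe set numbered among genes of their own chromosome. Whether the probe sets of Bhmt read transcripts from related sequences at those places was not tested.

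Bhmt2 encodes the close relative of BHMT that uses S-methylmethionine as its methyl donor. Its log2 signal was 12.02, 11.84 and 12.05 in ARSB-null livers, against 12.09, 12.16 and 12.06 in control livers. Every ARSB-null liver was below every control liver, by 0.01 at the nearest. The means were 11.97 ± 0.12 and 12.11 ± 0.05 (SD, n = 3 each; p = 0.1 by a two-sided exact permutation test, the lowest value that 3 mice against 3 allow). The log2 difference was -0.14 (95% interval -0.38 to 0.11, adjusted p = 0.972 from limma), and -0.071 without the ARSB-null mouse numbered 5. BHMT and BHMT2 are paralogs, and cross-hybridization between them was not tested.

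The product of the BHMT reaction, dimethylglycine, is demethylated by DMGDH. Dmgdh gave 12.16, 12.16 and 12.18 in ARSB-null livers, against 11.89, 12.03 and 12.07 in control livers. The ARSB-null livers were nearly equal and all lay above the controls. The means were 12.17 ± 0.01 and 12.00 ± 0.10 (SD, n = 3 each; p = 0.1 by the same exact permutation test), and the log2 difference was 0.17 (95% interval -0.06 to 0.40, adjusted p = 0.931 from limma). Without the control mouse numbered 4, the lowest liver, it was 0.114. Sardh, which converts sarcosine to glycine in the next step, read 12.39, 12.46 and 12.67 in ARSB-null livers and 12.43, 12.41 and 12.39 in control livers. Here the groups overlapped, and the ARSB-null mouse numbered 6 stood above the other livers. The log2 difference of Sardh was 0.10 (95% interval -0.16 to 0.36), and 0.019 without that mouse. Thus 1 of the 9 genes had groups without overlap and higher in ARSB-null liver, and 1 had them lower. Over all probe sets these shares were 5.14% and 6.78%, and over all 19938 genes, 1 probe set each, they were 4.73% and 8.32%.

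On the SAM side of the cycle, the groups overlapped for every gene measured. Mat1a, the liver form of methionine adenosyltransferase that makes SAM, had log2 signals of 13.74, 13.67 and 13.91 in ARSB-null livers, against 13.82, 13.72 and 13.67 in control livers (log2 difference 0.04, 95% interval -0.22 to 0.30). Gnmt, the glycine N-methyltransferase that disposes of excess SAM by forming sarcosine, had 13.25, 13.40 and 13.38 in ARSB-null livers and 13.26, 13.21 and 13.21 in control livers. For Gnmt a single pair kept the groups from separating, since the lowest ARSB-null liver was just under the highest control. The log2 difference of Gnmt was 0.12 (95% interval -0.11 to 0.34, adjusted p = 0.977 from limma). Pemt, which uses SAM to methylate phosphatidylethanolamine to phosphatidylcholine and so supplies choline, had 12.46, 12.33 and 12.45 in ARSB-null livers and 12.40, 12.38 and 12.36 in control livers. The control livers of Pemt lay inside the range of the ARSB-null ones (log2 difference 0.03, 95% interval -0.19 to 0.25).

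**Figure D2:**
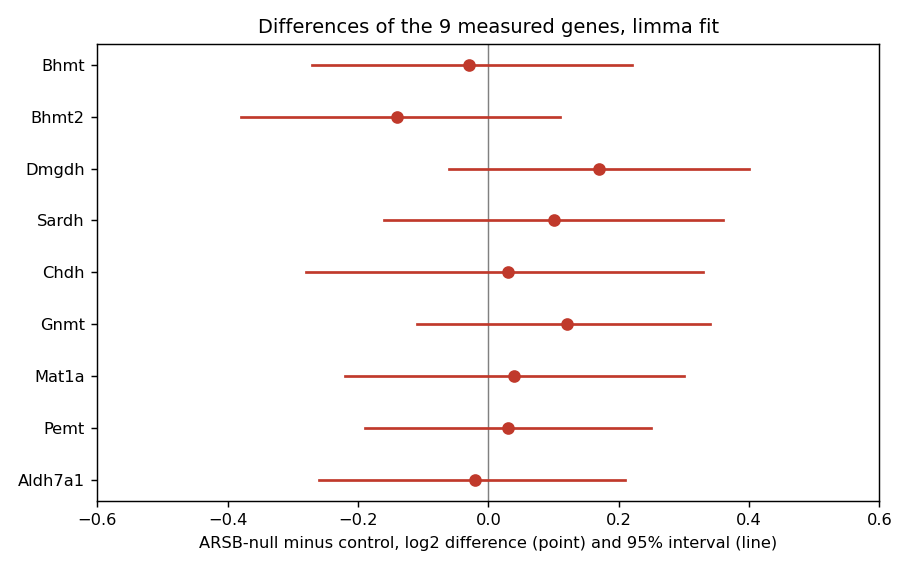
ARSB-null minus control log2 difference (points, horizontal axis) of the 9 measured genes, each on its brightest probe set, with 95% intervals from limma (lines). All 9 intervals cross 0, and their outer ends are -0.38 for Bhmt2 and 0.40 for Dmgdh.

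Part of the spread was shared by the genes within a liver. Among the ARSB-null livers, the mouse numbered 6 had the highest signal for 7 of the 9 genes and the lowest for 0, with a median deviation of 0.08 from the group mean. The ARSB-null mouse numbered 5 was lowest for 5 genes, and the one numbered 4 for 4. Among the controls, the mouse numbered 4 was highest for 6 genes and lowest for 2, which were Dmgdh and Chdh. The array medians of these 6 livers lay between 6.50 and 6.60. They were highest in the same livers, at 6.59 for ARSB-null mouse 6 (6.57 and 6.54 in mice 4 and 5). For control mouse 4 the median was 6.60 (6.50 and 6.51 in mice 5 and 6). The part of the array-wide level in the shared spread was not tested.

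The genomic arrangement of the neighbors is shown because Dmgdh and Bhmt2 were the genes whose groups did not overlap, in opposite directions, and because they start next to each other. In the RefSeq gene order of GRCm38.p6, Bhmt, Bhmt2 and Dmgdh follow one another and Dmgdh is next to Arsb, all on chromosome 13. RefSeq promoter windows, from 250 bases before to 50 bases after an annotated start, were found for 8 of the 10 genes (all but Mat1a and Aldh7a1), 11 windows in all. Bhmt2 and Dmgdh are read in opposite directions from starts with 133 bases between them, so that their windows share 233 bases. In the Dmgdh window, chr13:93674186-93674485 on the plus strand, capitals mark the stretch between both starts. Bhmt2 runs to the left of the capitals and Dmgdh to the right.
Dmgdh: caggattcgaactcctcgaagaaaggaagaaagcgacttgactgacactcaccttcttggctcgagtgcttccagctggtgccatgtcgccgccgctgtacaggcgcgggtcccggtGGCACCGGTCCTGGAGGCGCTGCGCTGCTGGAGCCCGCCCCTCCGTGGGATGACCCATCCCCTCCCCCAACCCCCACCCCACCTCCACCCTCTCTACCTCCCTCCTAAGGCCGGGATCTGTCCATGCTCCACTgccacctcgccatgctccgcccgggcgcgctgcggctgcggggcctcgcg
Bhmt starts on its own, and its window, chr13:93637709-93638008 on the minus strand of GRCm38.p6, is given for contrast. Capitals in it mark the letters CCAAT or their reverse complement.
Bhmt: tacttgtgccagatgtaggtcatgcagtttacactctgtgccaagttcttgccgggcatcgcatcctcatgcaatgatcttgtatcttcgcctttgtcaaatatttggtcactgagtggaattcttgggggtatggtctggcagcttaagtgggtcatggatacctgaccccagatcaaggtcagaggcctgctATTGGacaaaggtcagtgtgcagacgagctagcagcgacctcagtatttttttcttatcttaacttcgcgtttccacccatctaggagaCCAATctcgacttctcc

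The windows differed in base composition. The Dmgdh window held 25 CpG and was 68.0% G or C, and the Bhmt window held 8 CpG and was 48.0% G or C, where the median over all 32851 promoter windows was 7 CpG. GGGCGG, the letters bound by Sp1-type factors, was found on either strand in 4 of the 11 windows (those of Bhmt2 and Dmgdh, which share sequence, of Ahcy and of Chdh), and in 35.7% of all windows. The Dmgdh window held it at 2 places, 1 of them between the starts. CCAAT was in 4 of 11 windows (Bhmt, Gnmt, Pemt and Ahcy) and in 37.4% of all. TATAAA was in 0 of 11, against 13.6% of all. CACGTG and CATGTG are forms of the E-box bound by MITF, the transcription factor that the study examined. CAGGT, the putative MITF site that the paper gives for the GPNMB promoter, was not counted. CACGTG was in 0 of 11 windows (7.15% of all) and CATGTG in 1 of 11, a window of Chdh (14.2% of all). Each motif was counted by itself, also where it overlapped another, and a match describes the letters only.

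Genes on both sides of Arsb were compared to place these neighbors. The 10 nearest protein-coding genes with a single-gene probe set were taken on each side. Of these 20 genes, 0 passed the adjusted threshold in either direction, 11 averaged higher in ARSB-null liver and 9 lower, and the median log2 difference was 0.018. Bhmt stands among them with its brightest probe set, numbered elsewhere, and the probe set numbered at this locus had the -0.38 given above. Tent2, too, was read from a probe set (10521966) numbered far from those of the remaining neighbors, and what it reads was not tested. Dmgdh, the neighbor on one side, had 0.17, and Lhfpl2, the neighbor on the other, had 0.13 (95% interval -0.19 to 0.46). Outside the betaine genes, the smallest p belonged to Homer1, a postsynaptic scaffold protein. Its log2 signal was 7.16, 7.54 and 7.60 in ARSB-null livers, against 7.69, 7.88 and 7.77 in control livers, and the groups did not overlap (log2 difference -0.35, 95% interval -0.69 to -0.01, adjusted p = 0.835 from limma). Homer1 was the 1 gene of the 20 with an unadjusted p under 0.05, and with Dmgdh and Bhmt2 it made 1 higher and 2 lower genes of 20 without overlap. Over all single-gene probe sets, 1 per gene, the unadjusted shares were 2% higher and 3.8% lower, and the shares without overlap were 4.73% and 8.32%. Next were Crhbp, the binding protein of corticotropin-releasing hormone (-0.16), Scamp1, a carrier membrane protein (0.15), and Jmy, a p53 cofactor and actin nucleator (-0.20), with adjusted p-values of 0.956, 0.967 and 0.976 from limma.

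**Figure D3:**
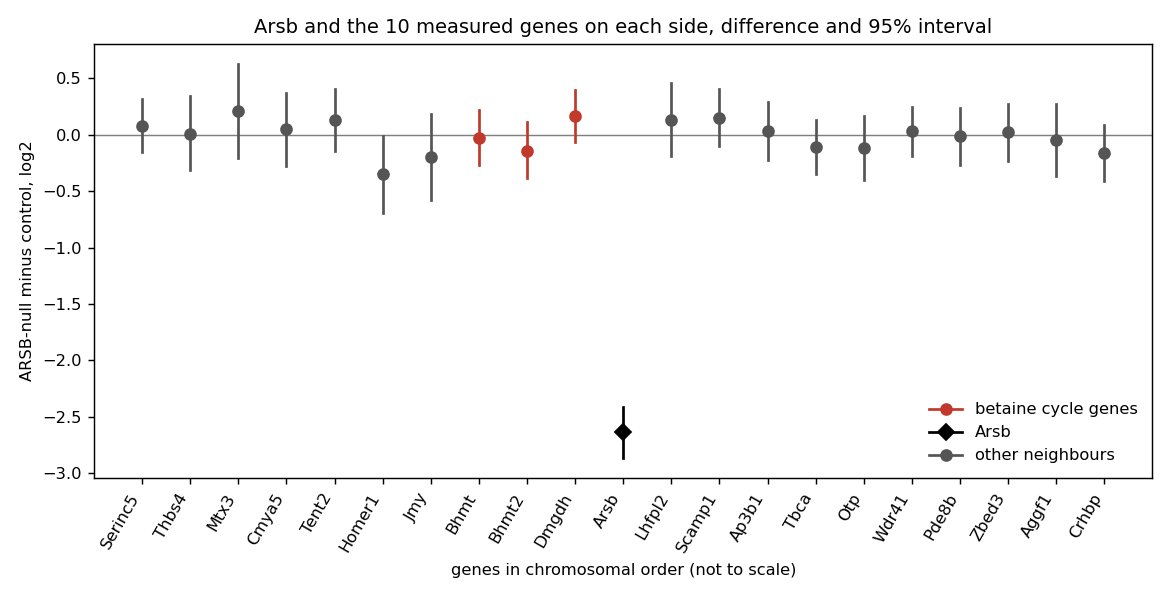
ARSB-null minus control log2 difference with its 95% interval (vertical axis) for Arsb (black) and the 10 measured genes on each side in chromosomal order (horizontal axis, not to scale), with Bhmt, Bhmt2 and Dmgdh in red. Arsb lies at -2.64, and its 20 neighbors, with Bhmt on its brightest probe set, lie between -0.35 (Homer1) and 0.21 (Mtx3).

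The pathways that feed the cycle or draw on it were described from 7 further lists. In none of them did a gene pass the adjusted threshold of limma, in either direction. Over all 19938 genes, 9017 averaged higher and 10921 lower in ARSB-null liver, and the median log2 difference was -0.016. The shares of these genes given above, 2% higher and 3.8% lower at an unadjusted p under 0.05 and 4.73% and 8.32% without overlap, are the background for each list. The folate cycle is the other source of methyl groups for homocysteine. Of its 20 measured genes (23 listed), 16 averaged lower in ARSB-null liver and 4 averaged higher. Their median log2 difference was -0.112, and 2 lower and 0 higher genes of the 20 had an unadjusted p under 0.05, beside 3.8% and 2% of all genes. Mthfd2, a mitochondrial enzyme that makes formyl-folate from methylene-folate, had log2 signals of 6.94, 6.76 and 6.58 in ARSB-null livers, against 7.10, 7.39 and 7.10 in control livers (log2 difference -0.44, adjusted p = 0.709 from limma). Tyms, thymidylate synthase, had 7.87, 7.67 and 7.67 in ARSB-null livers, against 7.95, 8.08 and 8.04 in control livers (-0.29, adjusted p = 0.789 from limma). For both genes every ARSB-null liver lay below every control. Mtfmt, the mitochondrial methionyl-tRNA formyltransferase, had a difference of -0.36, and Ggh, which trims folate polyglutamates, one of -0.17 (adjusted p = 0.843 and 0.970 from limma). For Ggh, too, every ARSB-null liver lay below every control, which made 3 lower and 0 higher genes of the 20 without overlap. Among all genes these shares were 8.32% and 4.73%.

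Homocysteine that is not remethylated passes to cysteine by transsulfuration. Of 12 genes of transsulfuration and cysteine use, all measured, 8 averaged higher and 4 lower in ARSB-null liver (median log2 difference 0.049), and 1 lower gene had an unadjusted p under 0.05. That gene was Csad, the decarboxylase of taurine synthesis. Its log2 signal was 10.73, 10.94 and 10.61 in ARSB-null livers, against 11.12, 11.29 and 11.53 in control livers, without overlap (log2 difference -0.55, 95% interval -0.89 to -0.21, adjusted p = 0.570 from limma). Cdo1, the cysteine dioxygenase one step before it, had 13.20, 13.24 and 13.25 in ARSB-null livers and 13.04, 13.12 and 13.12 in control livers (0.14, adjusted p = 0.962 from limma). The groups of Cdo1, and of Sqor (0.09), did not overlap either, with the higher signal in ARSB-null liver. Of the 12 genes, 2 were thus higher and 1 lower without overlap, beside 4.73% and 8.32% of all genes. Gclc and Gclm, the catalytic and modifier subunits that begin glutathione synthesis, had differences of -0.14 and -0.15.

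Among 17 measured genes (20 listed) of other SAM enzymes and methyl transfer, 11 averaged lower in ARSB-null liver and 6 higher. The median log2 difference was -0.045, and 4 lower genes and 0 higher ones of the 17 had an unadjusted p under 0.05, beside 3.8% and 2% of all genes. Ahcyl2, which is related in sequence to S-adenosylhomocysteine hydrolase, read 8.64, 9.06 and 8.90 in ARSB-null livers and 9.54, 9.35 and 9.27 in control livers (log2 difference -0.52, adjusted p = 0.599 from limma). Hnmt, which methylates histamine, read 8.85, 8.70 and 8.73 in ARSB-null livers and 8.99, 9.28 and 9.29 in control livers (-0.42, adjusted p = 0.633 from limma). The groups did not overlap for either. Gatm makes the guanidinoacetate of creatine synthesis and does not itself use SAM. It read 9.21, 9.52 and 9.21 in ARSB-null livers and 9.69, 9.81 and 9.63 in control livers (-0.40, adjusted p = 0.702 from limma). Tpmt, the thiopurine methyltransferase, read 10.59, 10.73 and 10.43 in ARSB-null livers and 10.87, 10.90 and 10.95 in control livers (-0.32, adjusted p = 0.749 from limma). These 4, named for the smallest p of the list, were separated between the groups with the lower signal in ARSB-null liver. Of the 17 measured genes, 4 were thus lower and 0 higher without overlap. Among all genes these shares were 8.32% and 4.73%.

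Of 20 measured genes (23 listed) of choline and betaine transport and phosphatidylcholine synthesis, 10 averaged higher and 10 lower (median log2 difference -0.029), and 1 was higher and 1 lower at an unadjusted p under 0.05. Gpcpd1, a phosphodiesterase that releases choline from glycerophosphocholine, had 10.66, 10.61 and 10.36 in ARSB-null livers, against 10.19, 9.96 and 9.85 in control livers (log2 difference 0.54, 95% interval 0.22 to 0.86, adjusted p = 0.535 from limma). Slc44a3, a choline transporter-like protein, had 8.39, 8.39 and 8.61 in ARSB-null livers, against 8.76, 8.91 and 8.80 in control livers (-0.36, adjusted p = 0.669 from limma). Neither gene had overlapping groups. Pcyt1a, the rate-limiting enzyme of phosphatidylcholine synthesis from choline, had a difference of -0.21 (adjusted p = 0.850 from limma) and Chpt1, the choline phosphotransferase of the last step, one of -0.25. Pcyt1a also had groups without overlap, which made 1 higher gene and 2 lower genes of the 20. Among all genes these shares were 4.73% and 8.32%.

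Glycine is the end product of betaine breakdown, and the electrons taken by DMGDH and SARDH pass to the electron transfer flavoprotein. Of 11 genes of glycine, sarcosine and electron transfer, all measured, 6 averaged higher and 5 lower (median log2 difference 0.010), and 1 was higher at an unadjusted p under 0.05. This was Agxt, the peroxisomal transaminase that makes glycine from glyoxylate. Its log2 signal was 11.12, 11.28 and 11.21 in ARSB-null livers, against 10.57, 10.76 and 10.76 in control livers. The lowest ARSB-null liver was thus well above the highest control (log2 difference 0.51, 95% interval 0.25 to 0.76), and the adjusted p of 0.391 from limma was the smallest of all the pathway genes. Amt and Gldc, parts of the glycine cleavage system, had differences of 0.14 and -0.15, and Etfa, the alpha subunit of the flavoprotein, had 0.13. With Agxt, Amt made 2 higher and 0 lower genes of the 11 without overlap, beside 4.73% and 8.32% of all genes.

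**Figure D4:**
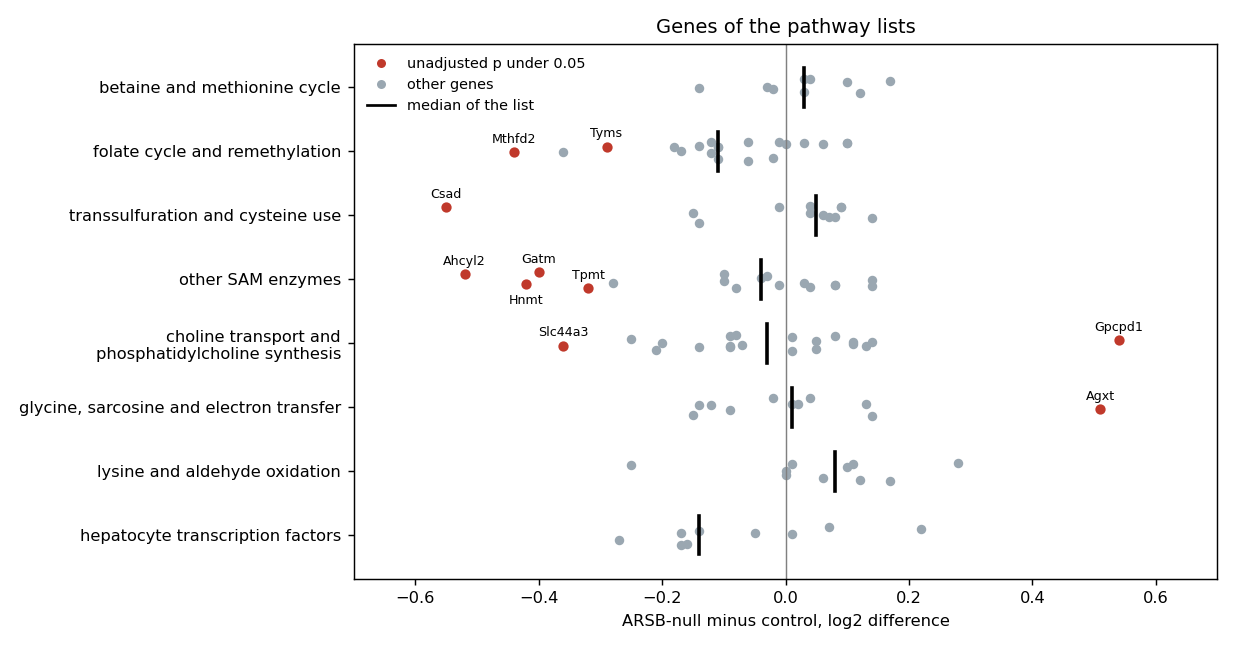
ARSB-null minus control log2 difference (horizontal axis) of each measured gene (points) in the betaine and methionine cycle and 7 related lists, with black bars for the list medians and red for an unadjusted p under 0.05 from limma. The betaine and methionine cycle genes lie between -0.14 and 0.17, and the named genes reach -0.55 for Csad and 0.54 for Gpcpd1.

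The aldehyde dehydrogenases and lysine enzymes around Aldh7a1 were a list of 10, all measured, with 7 higher and 3 lower means, a median log2 difference of 0.080 and 0 genes at an unadjusted p under 0.05 from limma. Aldh4a1, of proline breakdown, had 10.80, 10.94 and 10.97 in ARSB-null livers, against 10.44, 10.74 and 10.70 in control livers (0.28, adjusted p = 0.843 from limma). Aadat, a transaminase of lysine breakdown, had 10.05, 10.17 and 10.02 in ARSB-null livers, against 10.20, 10.43 and 10.34 in control livers (-0.25, adjusted p = 0.843 from limma). Neither had overlapping groups, and they lay in opposite directions. Dhtkd1 and Aass, also of lysine breakdown, had differences of 0.17 and 0.11. Aass also had groups without overlap, which made 2 higher genes and 1 lower gene of the 10. Among all genes these shares were 4.73% and 8.32%. Of 9 measured transcription factors of hepatocytes, 6 averaged lower and 3 higher (median -0.145), and 0 had an unadjusted p under 0.05 from limma. The smallest p-values were those of Nr3c1, the glucocorticoid receptor (-0.17), Foxa1 (-0.27), Nr1h4, the bile acid receptor (-0.16), and Hnf4a (-0.17). Their adjusted p-values were 0.907 to 0.964 from limma. Nr3c1 and Nr1h4 had groups without overlap, which made 2 lower and 0 higher genes of the 9. Among all genes these shares were 8.32% and 4.73%.

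The genes most like Dmgdh, the gene of the set with the smallest p, were sought among 11466 genes with a mean signal above the median. Over the 6 arrays, which include the difference between the groups, they were Yy1 (Pearson r = 0.996), a zinc finger transcription factor, Apoh (0.995), a plasma glycoprotein made by the liver, and Rbms1 (0.993), a nucleic acid binding protein. Apoh read 13.30, 13.34 and 13.35 in ARSB-null livers and 12.95, 13.17 and 13.21 in control livers, with the control mouse numbered 4 lowest, as for Dmgdh. With 6 points and this many genes, correlations of such size describe these arrays only.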

How the data were processed

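RNA of 6 livers was hybridized to mouse gene arrays. The deposited values are log2 signals that the authors normalized by quantiles and summarized to 1 value per probe set (RMA and Partek in the submitters' notes, versions not given). Such scaling removes a shift common to all genes, and no detection calls came with the values. The paper names a later array version than the one whose annotation matches the identifiers. Of 35556 probe sets, 21789 had 1 symbol, 1621 several and 12146 none listed.

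The groups were compared over all probe sets with limma 3.58.1 in R 4.3.3 (lmFit, eBayes, two-sided, Benjamini-Hochberg, adjusted p under 0.05, 95% intervals), since the per-gene ANOVA of the methods uses no shared spread. It was tested on simulated data. The 10 genes and 15 lists (168 of 187 genes measured) were chosen with earlier results of these data known. Named genes are all 10 genes, up to 4 genes with the smallest p of each pathway list and among the neighbors of Arsb, and 3 genes like the one with the smallest p. By the rule used, the mouse numbers were treated as a possible pairing. Deviations from group means of same-numbered mice correlated at 0.396, 0.159 and 0.193 over all probe sets, each above 0.1. Mice of different numbers were not compared, so these values cannot show that equal numbers were matched, and what equal numbers have in common is not given. The main fit and the permutation test took no account of the numbers. Alternatives were the replicate block, ANOVA, subsets of probe sets, scalings, another prior, array weights, gene means, arrays left out and other thresholds.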

Additional observations from a re-analysis of the deposited data

How the results depend on the processing

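No betaine or methionine cycle gene passed the adjusted threshold under any alternative run, so the counts stayed at 0 higher and 0 lower. With the replicate block, which treats same-numbered mice as pairs, 0 genes were higher and 0 lower. The block changed no call of a gene named here. Bhmt2, Dmgdh, Sardh and Gnmt kept their sign throughout, with log2 differences of -0.177 to -0.071, 0.114 to 0.205, 0.019 to 0.167 and 0.084 to 0.177. Differences near 0 turned sign. With array medians centred, which moved the median of all probe sets from 0.001 to -0.031, Bhmt (probe set 10457114) had -0.015, Chdh -0.003 and Pemt -0.002. With array weights, Bhmt (10511886) had 0.017, Chdh -0.067 and Aldh7a1 0.004. With both arrays numbered 4 left out, Bhmt (10511886) had 0.008, Chdh -0.074 and Aldh7a1 0.031. With each array left out in turn, the ranges were -0.071 to 0.032 for Bhmt (10511886), -0.015 to 0.075 for Bhmt (10457114), -0.093 to 0.097 for Chdh, -0.028 to 0.091 for Mat1a and -0.084 to 0.007 for Aldh7a1.

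Over all probe sets, 2 were higher and 5 lower. Other counts were 1 and 3 with the replicate block, 1 and 1 with ANOVA, 27 and 33 over probe sets with 1 symbol, 26 and 36 over gene means, 14 and 14 with array weights, 5 higher over brighter probe sets, 1 higher with medians centred, 1 and 0 without both arrays numbered 4, and 1 higher and 3 to 6 lower without each array in turn. At an adjusted p under 0.10 they were 8 and 8, and at an unadjusted p under 0.05 they were 978 and 1134. The causes were not tested. Arsb kept its direction throughout. Its brighter probe set lost its call without both arrays numbered 4 (log2 difference -2.67, adjusted p = 0.0534 from limma), and the other lost it there (0.0508) and by ANOVA (0.0533).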
